A study of Mus musculus with 3 samples.

Results

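The genes described here are the myosin heavy and light chains of striated muscle together with Mybpc3, in RNA-seq of mouse cardiac fibroblasts and of the cardiomyocyte-like cells made from them. The members were taken by gene name from a list of 10 genes, chosen with earlier results of these data known. All 10 were found among the 54532 genes counted. They were 4 heavy chains (Myh6, Myh7, Myh7b and Myh3), 3 essential light chains (Myl4, Myl1 and Myl3), 2 regulatory light chains (Myl7 and Myl2) and the cardiac myosin binding protein C (Mybpc3). Of these, 7 had over 10 counts in at least 1 library, and Myh7b, Myh3 and Myl2 did not.

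Myosin is the motor of the sarcomere, a molecule built from a pair of heavy chains that pull on actin and from essential and regulatory light chains that brace the lever arm of each heavy chain. Each chain comes in isoforms with their own tissue. In the adult mouse heart, Myh6 (alpha heavy chain) is the main heavy chain of atria and ventricles, Myh7 (beta heavy chain) is the fetal ventricular and slow skeletal chain, Myl7 and Myl4 are the atrial light chains and Myl2 and Myl3 the ventricular ones. Myl4 is also present in the fetal ventricle and in embryonic skeletal muscle, Myl1 is the essential light chain of fast skeletal muscle, Myh3 is the embryonic skeletal heavy chain, and Myh7b is a slow type heavy chain transcribed at low levels. Mybpc3 binds the myosin rod and tunes how the heads attach to actin.

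There were 3 libraries, 1 per condition. MICFs are fibroblasts isolated from the hearts of Myh6-mCherry mice 5 days after myocardial infarction by permanent ligation of a coronary artery, in mice that were 8 weeks old at surgery, and kept in culture without virus. The GMTMS-iCMs were MICFs given lentiviruses for Gata4, Mef2c, Tbx5, Myocd and Sall4, and the GMTMM-iCMs were MICFs given Gata4, Mef2c, Tbx5, Myocd and Mesp1, from vectors switched on by doxycycline (1 μg/ml in the inducing medium). All mice carried the mCherry reporter, which the mouse Myh6 promoter drives. After 4 weeks the iCMs were sorted for mCherry, and each iCM library (the GMTMS cells and the library labelled GMTMM below) was a mixture of 5 sorted samples, whereas the MICFs were not sorted on mCherry. Myh6 itself is therefore tied to the gate, and its difference between sorted cells and MICFs is a description of the sort. The other members were also compared between sorted iCMs and MICFs not sorted on mCherry. In their differences from MICFs, sort and cocktail cannot be told apart. With 1 library per condition there was no replicate error and no test between conditions. All intervals given are 95% intervals that cover counting error only.

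The library totals were 10624118 to 11904484 counts, and 3 counts, the limit that a count of 0 allows, corresponded to 0.252 to 0.282 CPM. Sall4 was counted 0 times in MICFs, 1190 times in GMTMS cells and 1060 times in the library labelled GMTMM, while Mesp1 was counted 0 times in all 3. The third library went against its label in these genes and is called the library labelled GMTMM throughout, and no direction below can be assigned to Mesp1. The libraries were mixed in cell type. Summed FPKM of 5 macrophage markers was 7135, 13564 and 6379 in MICFs, GMTMS cells and the library labelled GMTMM, and that of 8 fibroblast markers was 1748, 488 and 3214 in the same order. The 4 endothelial markers summed to 303, 9.52 and 228 FPKM. The fibroblast and endothelial sums were thus lower in GMTMS cells than in both other libraries and the macrophage sum was higher. Most of the macrophage sum was Lyz2, at 6135, 11353 and 5495 FPKM in MICFs, GMTMS cells and the library labelled GMTMM. On the log2 scale used for calls below, 1 of the 5 macrophage markers was higher in GMTMS cells than in MICFs. Against the library labelled GMTMM, 4 were higher. The part of these cell types in the myosin results was not tested. In such bulk RNA, fewer cells of a type and less RNA per cell cannot be told apart.

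The stretch before the start of a gene is where several of the delivered factors are known to act, so the windows of 250 bases upstream and 50 bases downstream of each RefSeq start (assembly GRCm38.p6) were searched on both strands for 4 motifs. GATA factors bind AGATAA or TGATAA, T-box factors such as Tbx5 bind AGGTGT, Mef2c binds the MEF2 site, and Myocd acts through serum response factor at the CArG box. The 10 members had 12 windows, 2 each for Myh7 and Myl2, and those of Myl2 lie upstream of the span that the files give for the gene. The nearer Myl2 window ends at chr5:122093238, whereas that span starts at chr5:122100951. A GATA motif was found in 4 members (Myl7, Mybpc3, Myh7b and Myl2), a CArG box in 2 (Myl7 and Myl3), a MEF2 site in 1 (Mybpc3) and AGGTGT in none. Among all 32851 windows of the same length, these motifs were found in 18.6%, 1.63%, 3.19% and 13.7%. The upstream stretches of Myl7 and Mybpc3 are shown because they held 2 kinds of motif each and because both genes were higher in both iCM libraries. Capitals mark the motifs, which did not overlap.
Myl7, chr11:5898783-5899032, minus strand: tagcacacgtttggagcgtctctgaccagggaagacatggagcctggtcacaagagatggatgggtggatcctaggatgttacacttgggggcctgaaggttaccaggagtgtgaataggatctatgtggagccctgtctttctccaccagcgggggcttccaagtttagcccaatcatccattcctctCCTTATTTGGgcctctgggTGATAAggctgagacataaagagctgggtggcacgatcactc
Mybpc3, chr2:91117894-91118143, plus strand: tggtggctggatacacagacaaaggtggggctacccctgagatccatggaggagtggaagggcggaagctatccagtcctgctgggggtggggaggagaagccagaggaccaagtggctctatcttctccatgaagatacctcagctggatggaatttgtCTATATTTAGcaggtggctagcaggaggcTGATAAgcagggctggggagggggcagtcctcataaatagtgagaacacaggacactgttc
In Myl7 the CArG box lies at -61 to -52 and the GATA motif at -42 to -37, counted from the start of the gene. In Mybpc3 the MEF2 site lies at -90 to -81 and the GATA motif at -61 to -56. Both stretches lie outside annotated exons of GENCODE M21. The windows of Myh6, Myh7, Myh3, Myl1 and Myl4 held none of these letters. The upstream stretches of Myh6 and Myl1, and that of Myl3, lie inside the span given for the gene. Of the 250 upstream bases for Myl4, 208 lie in exons at the neighbouring gene Cdc27. A window without a motif there thus does not describe the sequence before the outermost start of Myh6 or Myl1. A match is a description of the letters in a window, and binding was not measured.

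Myl7, the atrial regulatory light chain, had the greatest difference of all genes between either iCM library and MICFs on the log2 scale defined in the next paragraph. Its counts were 0 in MICFs, 3507 in GMTMS cells and 1708 in the library labelled GMTMM, or 0, 640 and 248 FPKM (fragments per kilobase of gene length, scaled by the authors to the size of each library). Its level was at least 1811-fold higher in GMTMS cells and at least 701-fold higher in the library labelled GMTMM than the FPKM of 3 counts in MICFs. Myh6 ranked 3rd and 7th by the same difference, and Myl4 22nd and 40th. The order of Myl7 and Myh6 depends on the scale. Over the FPKM of 3 counts in MICFs, Myh6 was 7280-fold and 2114-fold higher. On log2 CPM scaled by TMM, which does not divide by gene length, Myh6 differed by 13.07 and 11.35 and Myl7 by 11.07 and 9.76.

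A gene was called higher or lower when log2 (FPKM + 1), after quantile normalization over the 3 libraries, differed by over 1. Of the 10 members, 7 were higher in GMTMS cells than in MICFs (Myh6, Myh7, Myl4, Myl1, Myl3, Myl7 and Mybpc3), against 3.13% of all genes, and 0 were lower, against 2.72%. Of the genes with over 10 counts in either library, 9.29% were higher and 9.05% lower. In the library labelled GMTMM 6 members were higher, those named less Myh7, against 2.12% of all genes, and 0 were lower, against 1.3%. Of the genes with over 10 counts, 6.55% were higher and 3.61% lower there. The median difference of the 10 members was 2.28 and 1.43 on the log2 scale, and that of all genes was 0.00. Both comparisons use the same MICFs library, which was not sorted on mCherry, so that sort and cocktail cannot be told apart in them. The members were chosen with earlier results of these data known, so their counts beside those of all genes are a description.

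**Figure D1:**
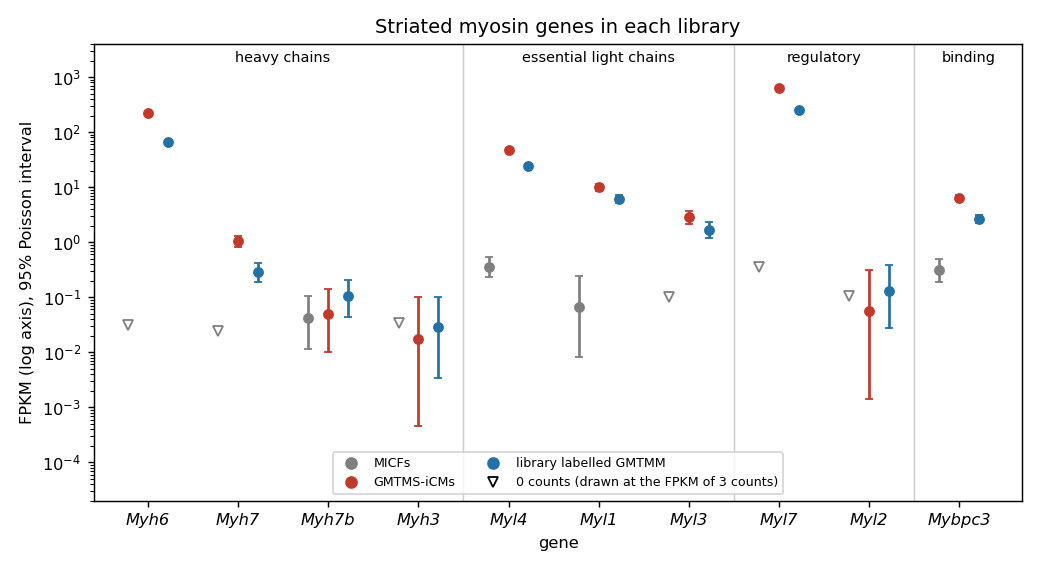
FPKM of the 10 members (log axis) in MICFs (grey), GMTMS-iCMs (red) and the library labelled GMTMM (blue), with 95% Poisson intervals on the counts; open triangles mark 0 counts and are drawn at the FPKM of 3 counts. Myl7, Myh6 and Myl4 are the highest members in both iCM libraries, and Myh7b, Myh3 and Myl2 stay below 1 FPKM in all 3.

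Among the heavy chains, Myh6 held nearly the whole of the striated pool in both iCM libraries. Myh6 (ENSMUSG00000040752, chr14:54941921-54966927, minus strand) was counted 0 times in MICFs, 14098 times in GMTMS cells and 5149 times in the library labelled GMTMM, which is 0, 226 and 65.5 FPKM. The sorted libraries were both high and MICFs was at 0. Myh7, its neighbour on the chromosome (ENSMUSG00000053093, chr14:54970684-54994626, minus strand), was counted 0, 83 and 29 times, or 0, 1.04 and 0.288 FPKM. Its level was at least 42.9-fold higher in GMTMS cells and at least 11.9-fold higher in the library labelled GMTMM than the FPKM of 3 counts in MICFs, and the latter difference was 0.35 on the log2 scale and was not called.

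Of the summed FPKM of the 4 striated heavy chains, Myh6 took 99.51% (interval 99.40 to 99.61) in GMTMS cells and 99.36% (99.13 to 99.55) in the library labelled GMTMM. Myh7 took 0.457% (0.364 to 0.567) and 0.437% (0.293 to 0.627). The intervals of both genes overlapped between the iCM libraries. Per length, Myh6 was 218-fold (175 to 273) above Myh7 in GMTMS cells and 227-fold (158 to 340) in the library labelled GMTMM, and the ratio of these ratios was 0.957 (0.603 to 1.48). The balance of the alpha and beta chains was thus not distinguishable between the iCM libraries at this depth. The share of Myh6 in sorted cells is tied to the gate, as its level is.

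The Myh7 counts carry 2 limits. Myh6 and Myh7 are near copies, and 28.3% of the 50-base words of Myh7 exons and 6.50% of its 150-base words (the read length) also occur in another gene, in most cases Myh6. Myh7 also shares 13.3% of its exon bases with other genes, among them 484 bases with the antisense gene Mhrt. The sources used here do not state whether counting used strand, so that reads from Myh7 and Mhrt cannot be told apart there.

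Mhrt, a long noncoding RNA read from the opposite strand between Myh6 and Myh7, was counted 0 times in MICFs, 46 times in GMTMS cells and 3 times in the library labelled GMTMM. Its FPKM was 19.3-fold (6.20 to 96.9) higher in GMTMS cells than in the library labelled GMTMM, where its count is at the limit of 3 counts. Of the 1214 exon bases of Mhrt, 484 lie in exons of Myh7, so its counts may hold reads of Myh7. Relative to Mhrt, Myh6 was lower in GMTMS cells than in the library labelled GMTMM, at 0.179 (0.0355 to 0.556) of the ratio there. As counted, Mhrt and Myh6 thus differed between the iCM libraries by different factors.

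**Figure D2:**
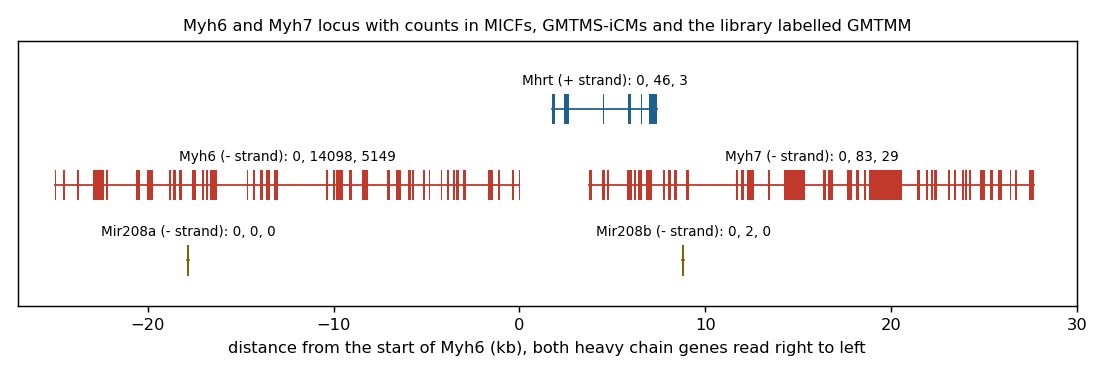
Map of the Myh6 and Myh7 locus by distance from the start of Myh6 in kilobases, with boxes for exons, lines for introns and, after each name, the counts in MICFs, GMTMS cells and the library labelled GMTMM. Mhrt lies between 1.75 and 7.42 kb, across the end of Myh7, and the miRNA genes lie within Myh6 and Myh7.

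Introns of 3 of the heavy chain genes hold the genes of miRNAs known as the myomiRs. Their mature sequences (RefSeq, GRCm38.p6) are shown with the seed, bases 2 to 8, in capitals, because hosts share a seed or nearly so.
mmu-miR-208a-3p, in Myh6: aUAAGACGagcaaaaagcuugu
mmu-miR-208b-3p, in Myh7: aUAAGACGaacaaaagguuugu
mmu-miR-499-5p, in Myh7b: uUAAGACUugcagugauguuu
The miRNAs of Myh6 and Myh7 share the seed UAAGACG, and the one of Myh7b has UAAGACU. They lie at chr14:54949072-54949093 (minus strand), chr14:54975710-54975731 (minus strand) and chr2:155622893-155622913 (plus strand). Mature miRNAs were not measured in these libraries. The precursor genes Mir208a and Mir499 were at 0 counts in all 3 libraries, and Mir208b was counted 0, 2 and 0 times.

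The other heavy chains were at the edge of detection. Myh7b (ENSMUSG00000074652, chr2:155611212-155634307) was counted 4, 3 and 8 times in MICFs, GMTMS cells and the library labelled GMTMM, or 0.0419, 0.0487 and 0.103 FPKM. The ratio to MICFs was 1.16 (0.170 to 6.87) in GMTMS cells and 2.46 (0.660 to 11.2) in the library labelled GMTMM, so no difference was detectable. The embryonic chain Myh3 (ENSMUSG00000020908, chr11:67078300-67102291) was counted 0, 1 and 2 times. These counts lie within the limit of 3 counts, and no fold is given. The adult skeletal heavy chains Myh1, Myh2 and Myh4 and the perinatal chain Myh8 had at most 7 counts in any library.

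Among the essential light chains, the atrial and fetal Myl4 led. Myl4 (ENSMUSG00000061086, chr11:104550663-104595753) was counted 24, 2006 and 1338 times in MICFs, GMTMS cells and the library labelled GMTMM, or 0.360, 46.6 and 24.7 FPKM. Its FPKM was 129.5-fold (86.8 to 203) and 68.7-fold (46.0 to 108) higher in the iCM libraries than in MICFs. Myl4 and Mybpc3 were the members with over 10 counts in MICFs.

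Myl1, the fast skeletal essential light chain (ENSMUSG00000061816, chr1:66924295-66945404), was counted 2, 191 and 150 times, or 0.0670, 9.92 and 6.19 FPKM. The ratio to MICFs was 148 (40.4 to 1231) in GMTMS cells and 92.4 (25.1 to 770) in the library labelled GMTMM. Myl1 was called higher in both iCM libraries. The skeletal muscle regulators Myod1, Myog, Myf5 and Myf6 and the fast troponin C gene Tnnc2 were at 0 counts in all 3 libraries, and the muscle creatine kinase gene Ckm was counted 0, 15 and 3 times. Of the 9 skeletal muscle markers, 1 was higher in GMTMS cells and 2 in the library labelled GMTMM, with a summed FPKM of 1.80, 7.56 and 7.49. Actn3, the actinin of fast fibres, made up most of that sum and was called higher in both, with 38, 147 and 151 counts and ratios to MICFs of 5.99 (4.17 to 8.80) and 4.90 (3.41 to 7.18). The fast troponin T gene Tnnt3 was counted 16, 13 and 48 times and was called higher in the library labelled GMTMM. In Myl1, 23.4% of the 50-base words and 1.93% of the 150-base words also occur in the pseudogene Mylf-ps.

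Myl3, the ventricular and slow skeletal essential light chain (ENSMUSG00000059741, chr9:110741861-110769798), was counted 0, 54 and 40 times, or 0, 2.84 and 1.68 FPKM. Its level was 27.9-fold and 16.4-fold higher than the FPKM of 3 counts in MICFs, with lower ends of the 95% intervals at 21.9 and 12.75. Myl3 shares 95 exon bases with Pth1r, which was counted 199, 16 and 144 times, in another order than Myl3.

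Of the summed FPKM of the 3 striated essential light chains, Myl4 took 78.5% (76.2 to 80.7) in GMTMS cells and 75.85% (72.9 to 78.6) in the library labelled GMTMM. Myl1 took 16.7% (14.7 to 18.9) and 19.0% (16.5 to 21.8), and Myl3 took 4.79% (3.63 to 6.19) and 5.14% (3.71 to 6.91). As shares of counts, Myl1 took 8.49% and 9.82% and Myl3 took 2.40% and 2.62%. The order Myl4, Myl1, Myl3 held in both libraries with intervals that did not overlap between neighbours. All 3 intervals overlapped between the libraries, so that no difference in isoform share was detectable. In MICFs the pool rested on 26 counts, of which 24 were Myl4.

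Among the regulatory light chains, the atrial isoform was nearly alone. Myl7 (ENSMUSG00000020469, chr11:5896637-5898782, minus strand) has the values given above. The ventricular isoform Myl2 (ENSMUSG00000013936, chr5:122100951-122113472) was counted 0, 1 and 3 times, or 0, 0.0552 and 0.132 FPKM, within the limit of 3 counts in every library. Myl7 took 99.99% (99.95 to 100) of the FPKM of the pair in GMTMS cells and 99.95% (99.84 to 99.99) in the library labelled GMTMM. The fast skeletal regulatory chain Mylpf, which is no member, was counted 10, 157 and 76 times and was called higher in both iCM libraries. Its level was 15.9 FPKM in GMTMS cells and 6.13 FPKM in the library labelled GMTMM, above Myl2 and below Myl7.

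The lead of Myl7 and Myl4, named above as atrial for the adult heart, was set beside other chamber genes. Of 4 atrial markers, of which Myl7 and Myl4 are members, 4 were higher in GMTMS cells and 3 in the library labelled GMTMM. The atrial natriuretic peptide gene Nppa was counted 0, 30 and 52 times and sarcolipin (Sln) 0, 22 and 8 times. Of the 4 ventricular markers, of which Myl2 and Myl3 are members, 1 was higher in each iCM library. The ventricular regulator Irx4 was at 0 counts in all 3 libraries, and Hey2 was counted 37, 19 and 89 times. Per length, Nppa stood at 3.73 FPKM in the GMTMS cells and 5.15 FPKM in the library labelled GMTMM, a ratio of 0.726 (0.447 to 1.16), where Myl7 and Myl4 had ratios above 1. No chamber tissue or embryonic heart was among the libraries, and the chamber identity of the cells was not tested.

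Mybpc3 (ENSMUSG00000002100, chr2:91118144-91136516) was counted 19, 250 and 129 times in MICFs, GMTMS cells and the library labelled GMTMM, or 0.317, 6.47 and 2.65 FPKM. Its FPKM was 20.4-fold (12.8 to 34.4) and 8.36-fold (5.14 to 14.3) higher in the iCM libraries than in MICFs. This was the smallest fold among the members called higher that had counts in MICFs. Its levels stayed far below those of the heavy chain it binds. Per length, Myh6 was 34.9-fold (30.8 to 39.7) above Mybpc3 in GMTMS cells and 24.7-fold (20.7 to 29.6) above it in the library labelled GMTMM. The other binding protein genes are no members. The fast skeletal Mybpc2 was counted 0, 76 and 15 times, Mybphl 1, 31 and 7 times and Mybph 0, 24 and 2 times.

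Striated myosin was set beside the smooth muscle and non-muscle myosins counted in the same libraries. In MICFs the 4 heavy chain members took 0.0409% (0.0111 to 0.105) of the summed FPKM of all 14 heavy chain genes. Their share was 66.9% (66.3 to 67.5) in GMTMS cells and 32.1% (31.5 to 32.8) in the library labelled GMTMM. The MICFs pool was made almost wholly of Myh9 (67.5%), Myh11 (16.7%) and Myh10 (15.6%). Myh9 and Myh10 are non-muscle heavy chains, and Myh11 is the smooth muscle heavy chain. In the iCM libraries the striated share was nearly all Myh6 (66.6% and 31.9%), which is tied to the mCherry gate. In GMTMS cells, Myh11 took 20.7% and Myh9 10.1%, and in the library labelled GMTMM they took 24.9% and 34.6%. Per length, Myh6 was 6.56-fold (6.34 to 6.80) above Myh9 in GMTMS cells and at 0.924 (0.894 to 0.955) of it in the library labelled GMTMM.

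The light chains gave the same order of libraries. The essential members took 0.382% (0.250 to 0.560) of all essential light chain FPKM in MICFs. Their share was 34.0% (32.8 to 35.2) in GMTMS cells and 17.7% (16.8 to 18.5) in the library labelled GMTMM. The rest was almost all Myl6, the chain shared by smooth muscle and non-muscle myosin. The regulatory members Myl7 and Myl2 took 0 of 3491 counts in MICFs, with an exact binomial interval that reaches 0.106%. They took 75.9% (75.0 to 76.8) of the FPKM in GMTMS cells and 49.0% (47.6 to 50.4) in the library labelled GMTMM. The fast skeletal Mylpf was counted with the other genes. It took 0.485%, 1.89% and 1.21% of the pool in MICFs, GMTMS cells and the library labelled GMTMM. Myl9 was the main other regulatory chain, with 70.2%, 19.9% and 40.8% of the pool.

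**Figure D3:**
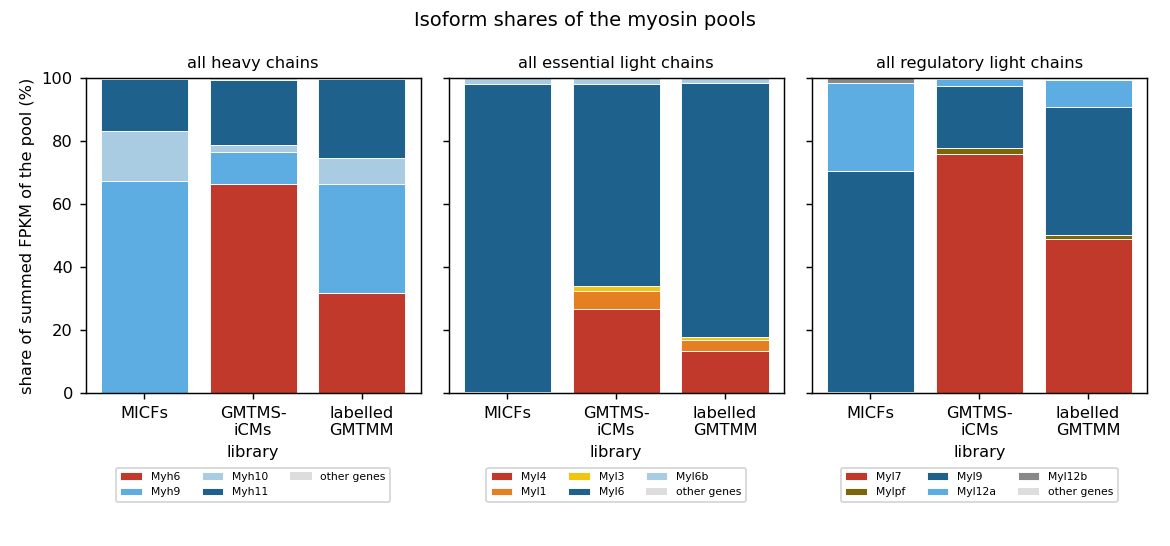
Share in percent of the summed FPKM of all heavy chains (left), all essential light chains (middle) and all regulatory light chains (right), stacked by gene in each library; red, orange and yellow mark members, brown the fast skeletal Mylpf, and blue shades and dark grey other smooth muscle and non-muscle genes. The members take 66.9%, 34.0% and 75.9% of the pools in GMTMS cells and 32.1%, 17.7% and 49.0% in the library labelled GMTMM. The heavy chain share is nearly all Myh6, which is tied to the mCherry gate.

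Of the 8 smooth muscle and non-muscle myosin genes, 1 was higher (Myh11) and 3 were lower (Myh9, Myh10 and Myl12a) in GMTMS cells than in MICFs, and 1 was higher (Myh11) and 0 lower in the library labelled GMTMM. Myh11 was counted 1867, 4947 and 4530 times, or 17.1, 70.1 and 51.0 FPKM. Myh9 was counted 12873, 4128 and 10711 times. The summed FPKM of the 5 smooth muscle markers, of which Myh11 is one, was 236, 393 and 532. Between the iCM libraries the striated shares were higher where the fibroblast and smooth muscle sums were lower. The smooth muscle markers were split, however. Most of their sum was Acta2, at 300.5 FPKM in GMTMS cells and 445.2 FPKM in the library labelled GMTMM. Acta2, Smtn and Tagln had ratios of 0.6749, 0.2291 and 0.6673 between these libraries, the last with an interval that includes 1. Myh11 and Cnn1 were higher in GMTMS cells, with ratios of 1.373 (1.319 to 1.43) and 1.218 (1.059 to 1.401). Against MICFs, the library labelled GMTMM had higher fibroblast and smooth muscle sums and higher striated shares as well. The part of these cells in the result was not tested.

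GMTMS cells held more of every member with over 10 counts than the library labelled GMTMM, but not by the same factor. On the log2 scale, 3 of the 10 members were higher in GMTMS cells, Myh6 by 1.68, Myl7 by 1.21 and Mybpc3 by 1.09, against 2.33% of all genes, and 0 were lower, against 2.84%. Of the genes with over 10 counts in either library, 6.4% were higher and 9.6% lower. The ratio of FPKM was 3.44 (3.34 to 3.56) for Myh6, 3.60 (2.33 to 5.70) for Myh7, 2.58 (2.44 to 2.74) for Myl7 and 2.44 (1.96 to 3.04) for Mybpc3. It was 1.89 (1.76 to 2.02) for Myl4, 1.70 (1.11 to 2.62) for Myl3 and 1.60 (1.29 to 2.00) for Myl1. The 3 essential light chains thus had lower ratios than Myh6, Myl7 and Mybpc3, although the intervals of all 3 overlapped that of Mybpc3 and that of Myl3 also overlapped that of Myl7. Scaled by the library totals in place of the deposited scale, each of these ratios is 0.891 of the value given, and Myl1 falls to 1.43.

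The ratio of 2 genes within a library is free of the scale of that library, and when it is compared between libraries gene length drops out as well. Such ratios were compared between the iCM libraries. The ratio of Myh6 to Myl4 was 1.83 times (1.69 to 1.97) as high in GMTMS cells as in the library labelled GMTMM. That of Myh6 to Myl1 was 2.15 times (1.72 to 2.68) and that of Myh6 to Myl3 2.03 times (1.31 to 3.11) as high. For Myl7 and Mybpc3 the values were smaller, 1.33 (1.25 to 1.43) and 1.41 (1.13 to 1.76). Within the essential light chains, the ratio of Myl4 to Myl1 differed by 1.18 (0.934 to 1.48) and that of Myl4 to Myl3 by 1.11 (0.714 to 1.71), with intervals that include 1. Myh6 and the essential light chains thus moved apart between the iCM libraries by more than counting error, and a change of proportion among the essential light chains was not detectable at this depth.

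**Figure D4:**
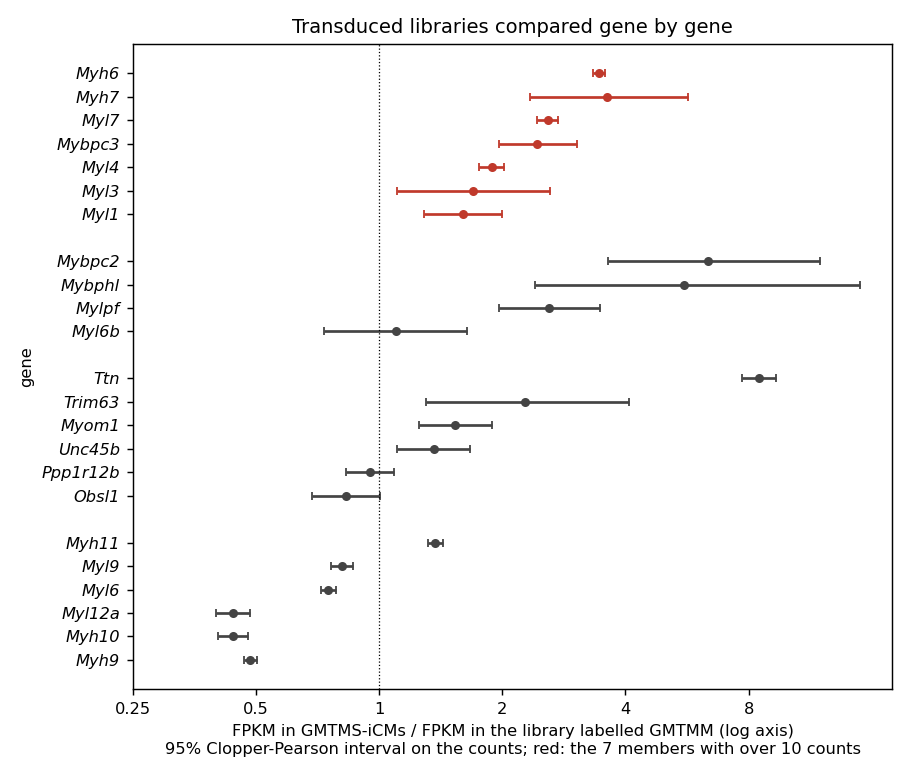
Ratio of FPKM in GMTMS cells to FPKM in the library labelled GMTMM (log axis) with 95% Clopper-Pearson intervals on the counts, for the 7 members with over 10 counts (red) and for related sarcomeric, thick filament and non-muscle genes (grey). The members lie between 1.60 and 3.60, Ttn at 8.48, and Myh9, Myh10 and Myl12a below 0.5.

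Other cardiac sarcomere and calcium genes were used as a reference for Myh6. In GMTMS cells the ratio of Myh6 to the troponin I gene Tnni3 was 0.908 (0.770 to 1.07) of that in the library labelled GMTMM, and to the actinin gene Actn2 1.04 (0.811 to 1.32). To Actc1, cardiac actin, it was 1.33 (1.25 to 1.41) and to Tnnt2, cardiac troponin T, 1.58 (1.50 to 1.67). To Ryr2, the calcium release channel, it was 1.33 (1.21 to 1.46). To titin (Ttn), the spring that centres the thick filament, it was 0.406 (0.367 to 0.449). Myh6 was therefore neither the cardiac gene that differed most between the iCM libraries nor the one that differed least. The summed FPKM of 7 cardiomyocyte markers was 1.29, 452 and 175 in MICFs, GMTMS cells and the library labelled GMTMM. Phospholamban (Pln), a defining marker on that list, was counted 0, 2 and 0 times.

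Partners of the thick filament were taken from a list of their own. Titin (Ttn), the myosin chaperone Unc45b and the ubiquitin ligase Trim63 were higher in GMTMS cells than in MICFs and were not called in the library labelled GMTMM, where the pseudocount of 1 on the log2 scale weighs on low FPKM. Against MICFs, the FPKM in that library was 30.2-fold (19.3 to 49.9) higher for Ttn and 2.31-fold (1.80 to 2.99) higher for Unc45b. For Trim63 it was 8.62-fold above the FPKM of 3 counts in MICFs, with the lower end of the interval at 6.415. Ttn was counted 20, 3305 and 490 times in MICFs, GMTMS cells and the library labelled GMTMM. It was 8.48-fold (7.71 to 9.35) higher in GMTMS cells than in the library labelled GMTMM, where Myh6 was 3.44-fold higher. Unc45b, which folds the myosin head, was counted 98, 199 and 184 times. Trim63 was counted 0, 38 and 21 times, and Myom1, of the M-line, 167, 211 and 173 times. The broadly expressed genes Obsl1 and Ppp1r12b were counted 366, 179 and 271 times and 530, 378 and 500 times.

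Of 13 further sarcomeric myosins and binding proteins, 4 were higher in GMTMS cells than in MICFs (Mylpf, Mybpc2, Mybph and Mybphl) and 1 in the library labelled GMTMM (Mylpf). The 5 with over 10 counts included Myl6b, an essential light chain of slow and non-muscle cells, which was counted 49, 49 and 56 times and was not called. Mybpc2 was 6.37-fold (3.63 to 11.9), Mybphl 5.57-fold (2.41 to 15.0) and Mylpf 2.60-fold (1.96 to 3.46) higher in GMTMS cells than in the library labelled GMTMM.

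The level of one member beside another depends on the length by which a gene is divided. The deposited FPKM used the length of all exons of a gene together, 4637 bases for Myl4, whose longest coding transcript has 943 bases. By the latter, Myl4 went from 46.6 to 229 FPKM in GMTMS cells and from 24.7 to 121.5 in the library labelled GMTMM. Per length of all exons, Myh6 was 4.85-fold (4.62 to 5.08) above Myl4 in GMTMS cells and 2.65-fold (2.50 to 2.82) above it in the library labelled GMTMM. Per transcript length the ratio was 1.08 (1.03 to 1.14) and 0.594 (0.559 to 0.631), so that the order of the pair in the library labelled GMTMM turns over. Myl7 stayed above Myl4, by 13.7-fold and 10.0-fold per length of all exons and by 2.79-fold and 2.04-fold per transcript length. Myl7 also stayed above Myh6, by 2.84-fold and 3.78-fold per length of all exons and by 2.58-fold and 3.44-fold per transcript length. Per transcript length, Myh6 was 4.15-fold (4.01 to 4.30) above Myh9 in GMTMS cells and at 0.585 (0.565 to 0.604) of it in the library labelled GMTMM.

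**Figure D5:**
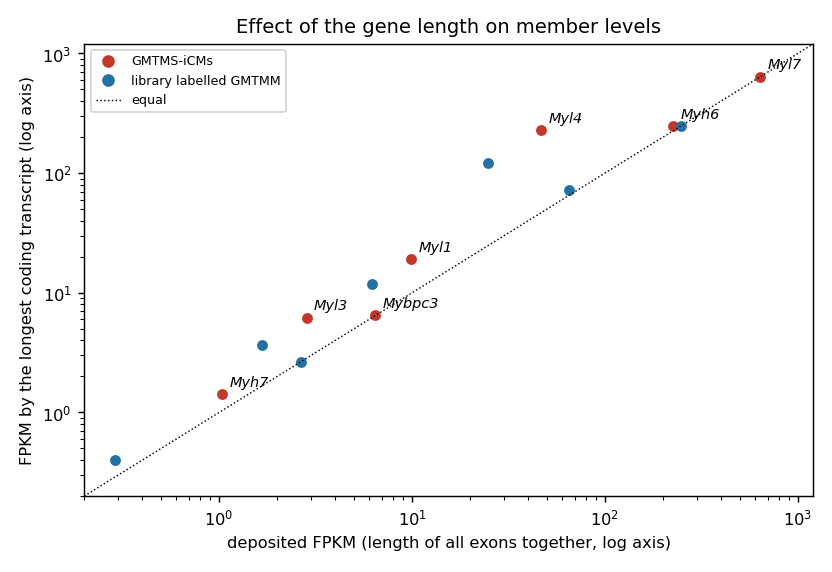
Level of 7 members in GMTMS cells (red) and the library labelled GMTMM (blue) as deposited FPKM (x, log axis) and as FPKM by the longest coding transcript (y, log axis), with the line of equality; names stand beside the points of the GMTMS cells. Myl4 moves from 46.6 to 229 FPKM in GMTMS cells, whereas Myl7 and Mybpc3 stay on the line.

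By transcript length the order of the libraries within each pool was as before, but the order of the pools was not. The members took 62.3% of all heavy chains, 53.7% of all essential chains and 73.7% of all regulatory chains in GMTMS cells. In the library labelled GMTMM they took 26.1%, 32.1% and 45.4%, so that the essential pool lay above the heavy pool there. In MICFs the shares were 0.0279%, 0.886% and 0. The essential light chains were the pool whose share moved most with the length used, from 34.0% to 53.7% in GMTMS cells.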

How the data were processed

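RNA-seq of 3 mouse libraries was used, 1 each for MICFs, GMTMS-iCMs and GMTMM-iCMs. The authors deposited raw counts per gene and, in another table, FPKM. The submitters' processing notes name HISAT2 2.0.5 and the build mm9, but the coordinates in the tables are those of GRCm38. The counting tool and its use of strand are not given in the sources used here. Of the gene lengths in the tables, 98.01% equalled the exon union in GENCODE M21. The column abbreviated as cardiac myofibroblasts was taken as MICFs by elimination.

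The deposited FPKM had been scaled by effective library sizes of 14389264 (MICFs), 9287868 (GMTMS) and 11680913 (GMTMM), against total counts of 11861773, 10624118 and 11904484. FPKM were quantile-normalized over the 3 libraries and transformed as log2 (value + 1), after the study's methods, and a difference over 1 was called. This scale understates changes of low genes. With 1 library per group no p-value was computed. Each fold divides one FPKM by another, and its 95% interval (Clopper-Pearson) comes from the paired counts. Against 0 counts the fold is taken over 3 counts in that library, without the counting error of the other library. Shares have exact binomial intervals, converted to FPKM. Sequence reads were counted without molecular identifiers, so that intervals and limits cover counting error only.

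The genes named are the 10 members, the delivered factors, up to 6 genes with the highest FPKM and over 10 counts of each related list, the marker lists, the genes within the heavy chain loci, and the 5 genes most like Myh7b and Mybpc3. The skeletal heavy chains with few counts and Pth1r, which overlaps Myl3, were named after their values were seen. Members and lists were chosen with earlier results of these data known. One gene of the thick filament list, and the counts over that list, are not reported here. Marker genes served as checks. The steps were tested on simulated data. Tools were R 4.3.3, edgeR 4.0.16 (TMM), DESeq2 1.42.0 (size factors), Python 3.11.15 with SciPy 1.17.1, pandas 2.3.3, numpy 2.4.6 and matplotlib 3.10.9. Alternatives were log2 before quantile normalization, none, a pseudocount of 0.1, a difference over 2, TMM log2 CPM, counts over DESeq2 size factors, a filter at an FPKM of 1, shares of counts, shares with members under 3 counts set at 3, and the length of the longest coding transcript. The last was chosen after seeing the data.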

Additional observations from a re-analysis of the deposited data

How the results depend on the processing

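No paired analysis was possible because the conditions were sequenced once each. Members called against MICFs in the GMTMS cells numbered 6 to 9 under the alternatives and 7 in the report, against 0.911% to 11.9% of all genes with a value. In the library labelled GMTMM they numbered 4 to 10 and 6 in the report, against 0.603% to 8.07%. Counts over DESeq2 size factors gave the 10, against 7.09% of all genes. These 10 include Myh7b, Myh3 and Myl2, at 8, 2 and 3 counts in that library. Between the iCM libraries the members called numbered 3 to 4 and 3 in the report, against 2.24% to 9.28% of all genes with a value. With a difference over 2 they numbered 0, against 0.136%. Of the 150 differences of members under the alternatives, 0 turned the sign of a called value and 76 moved. As a share of counts, Myh6 took 99.39% of the heavy chain members in the GMTMS cells. Myl4 took 89.12% of the essential members there and 87.57% in the library labelled GMTMM. Myl7 took 99.82% of the counts of Myl7 and Myl2 in the library labelled GMTMM. By the longest coding transcript, Myh6 took 99.4% and Myl4 90.08% in the GMTMS cells, and Myl4 88.67% in the library labelled GMTMM. These shares move by construction, as the weights of the genes change with the length used. By library totals, folds against MICFs are 0.721 (GMTMS-iCMs) and 0.809 (library labelled GMTMM) of those given, and by TMM 0.942 and 0.980. At this depth no statement on Myh7b, Myh3 or Myl2 beyond their counts was possible.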

Other observations

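The genes whose levels were spread over the 3 libraries most like Mybpc3 were looked up among 12116 genes with at least 100 counts in all. Mybpc3 had 3.36% of its summed FPKM in MICFs, 68.5% in the GMTMS cells and 28.1% in the library labelled GMTMM. The nearest genes by Euclidean distance were Acp5 (3.08%, 68.4% and 28.5%), Tnfsf15, Perp, Samsn1 and Ldb3, at distances of 0.494 to 0.964 percentage points. Acp5, the tartrate-resistant acid phosphatase, and Samsn1 are known from macrophages and other blood cells, and Ldb3 is a Z-disc protein of striated muscle. For Myh7b, with 15 counts in all, the nearest were Abhd2, Snhg1, Gm28192, Parm1 and P4htm, at 0.612 to 1.77 percentage points. At so few counts the shares of Myh7b are too uncertain to rank neighbours at such distances. With 3 libraries this likeness is a description.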
